A study of Drosophila melanogaster with 2 samples.

Results

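CG14100, Ugalt, px, PNPase, Art3, CG18549, Tcs5 and CG9147 lie under 8 of the 9 strongest promoter peaks of Max-GFP in Drosophila melanogaster embryos. These 8 genes, of 13945 protein-coding genes on the 6 main chromosome arms, were selected on the authors' peak score, as genes whose annotated starts lie under the highest promoter peaks of the list filtered by the irreproducible discovery rate (the IDR list). Their scores are therefore given as a description, and no test was made on them. The peak at Chro and Ssl1, at rank 3 among promoter peaks, is outside the set as given. The genes mRpS10, CHMP2B and Fbw5 also start near the peaks of Art3, Tcs5 and CG9147 and are not members. Chromatin immunoprecipitation and sequencing (ChIP-seq) had been done on whole embryos aged 0 to 24 h, both sexes together, of the Max-GFP strain, a transgenic line that stably makes Max with GFP at its C terminus. There was 1 group, with 2 biological replicates numbered 2 and 3 in the labels, so no condition could be compared. The labels' description names an antibody against GFP, while their antibody field names Max, and the promoter that drives the transgene is not given in the sources used here. Embryos of all these ages and all their cell types were mixed, so a peak cannot be assigned to a tissue or stage. The files hold peaks and scores with no read counts, so sequencing depth is unknown.

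Max belongs to the bHLH-zip family of proteins and binds DNA as a dimer, with Myc as its activating partner and Mnt as its repressing partner in flies. Its known recognition sequence is the E-box, with CACGTG as the canonical form. In Drosophila the network is known for growth, ribosome production and metabolism. The proteins of the 8 genes have unlike roles. Ugalt carries UDP-galactose into the Golgi, PNPase is the mitochondrial polynucleotide phosphorylase that degrades RNA, and Art3 is an arginine methyltransferase. Tcs5 is the kinase-like subunit of the complex that makes the threonylcarbamoyladenosine (t6A) base of tRNA, and plexus, the product of px, limits where wing veins form. RefSeq lists CG18549 under the synonym MFSD11, a name of a transporter-like human protein, and calls CG14100 and CG9147 uncharacterized.

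The DNA under 3 of the summits is shown first because a string of 7 letters, GGGCGTA, recurs in it upstream of the summit. Each window holds 201 bases centred on the summit, was read from the Release 6 genome (RefSeq, the dm6 assembly), and is written 5′ to 3′ along its gene. Capitals mark GGGCGTA on either strand and every run of 4 or more G or C. The CG14100 window is chr3L:19590529-19590729 on the minus strand, that of Ugalt is chrX:2703781-2703981 on the minus strand, and that of Tcs5 is chr3L:5139403-5139603 on the minus strand.
CG14100: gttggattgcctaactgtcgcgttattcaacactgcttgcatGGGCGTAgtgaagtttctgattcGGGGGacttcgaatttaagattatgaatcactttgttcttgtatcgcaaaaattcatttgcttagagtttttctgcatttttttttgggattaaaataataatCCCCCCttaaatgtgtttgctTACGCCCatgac
Ugalt: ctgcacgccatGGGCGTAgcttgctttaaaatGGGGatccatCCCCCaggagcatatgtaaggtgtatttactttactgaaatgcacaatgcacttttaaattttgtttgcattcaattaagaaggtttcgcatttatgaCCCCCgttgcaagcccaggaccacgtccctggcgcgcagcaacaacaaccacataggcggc
Tcs5: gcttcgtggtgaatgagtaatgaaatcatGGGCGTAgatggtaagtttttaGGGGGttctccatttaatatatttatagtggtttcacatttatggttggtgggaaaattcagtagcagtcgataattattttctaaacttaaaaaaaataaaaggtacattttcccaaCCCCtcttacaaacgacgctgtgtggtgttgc

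The windows of 4 further members are shown for contrast. None of them holds GGGCGTA, and capitals mark every match wholly inside the window to the motifs searched (below, the E-box forms, the DRE and its CGATA core, and TATAAA). The PNPase window is chr3R:31404556-31404756 on the minus strand and has no capitals. The Art3 window is chr3R:15229427-15229627 on the minus strand, that of CG18549 is chr3R:12449098-12449298 on the plus strand, and that of CG9147 is chr2L:6065998-6066198 on the plus strand.
PNPase: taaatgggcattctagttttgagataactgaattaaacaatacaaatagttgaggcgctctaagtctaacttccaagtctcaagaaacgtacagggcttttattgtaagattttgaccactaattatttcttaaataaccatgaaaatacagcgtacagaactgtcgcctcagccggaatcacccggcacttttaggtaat
Art3: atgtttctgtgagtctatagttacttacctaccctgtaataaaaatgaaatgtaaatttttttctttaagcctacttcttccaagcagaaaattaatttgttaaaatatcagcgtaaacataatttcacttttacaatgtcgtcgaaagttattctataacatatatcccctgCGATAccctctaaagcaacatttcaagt
CG18549: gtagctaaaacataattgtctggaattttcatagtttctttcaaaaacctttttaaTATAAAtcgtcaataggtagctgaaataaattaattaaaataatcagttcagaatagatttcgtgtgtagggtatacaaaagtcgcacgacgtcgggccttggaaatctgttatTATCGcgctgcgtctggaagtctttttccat
CG9147: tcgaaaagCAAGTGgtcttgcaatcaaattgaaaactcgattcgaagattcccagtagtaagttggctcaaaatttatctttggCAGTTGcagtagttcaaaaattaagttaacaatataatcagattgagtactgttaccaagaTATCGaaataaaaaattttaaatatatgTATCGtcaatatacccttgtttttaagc

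No member had the canonical E-box CACGTG within 100 bp of its strongest summit. It was there at 219 of all 2855 IDR promoter summits (7.67%) and at 12 of the 100 highest that were not members. A summit counts here as a promoter summit when a protein-coding gene has a start no more than 500 bp away. The nearest canonical E-box to a member's summit was at Art3, 142 to 147 bp downstream of the summit and so outside the printed window. The 3 variants named next were also in no member window of 100 bp. Of all promoter summits 5.53% had CACGCG there, 8.62% had CATGTG and 12.6% had CAGCTG. The general form CANNTG, which also counts the canonical form and the last pair named, was within 100 bp at CG14100, Ugalt, px and CG9147, which is 4 of 8, while 61.7% of all promoter summits had it. With 8 summits these counts are descriptions only, and a window without these letters says nothing about whether the factor was bound.

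Elements of Drosophila core promoters that other factors are known to bind were searched next, and those of the DRE and Ohler type were in no member window. These were the DRE (TATCGATA, bound by DREF), Ohler 1 (GGTCACAC, bound by M1BP), Ohler 6 (GGTATTTT) and Ohler 7 (CATCNCTA). None had a match within 100 bp in any of the 8, while 689 of 2855 promoter summits (24.1%) had at least 1 of them. Among the 100 highest promoter summits that were not members, 4 had the DRE, 2 Ohler 1, 7 Ohler 6 and 4 Ohler 7. The shares of all promoter summits were 9.53%, 6.58%, 4.31% and 7.18%, in the same order. A DRE lay farther out at 2 members, 178 to 185 bp upstream of the CG18549 summit and 115 to 122 bp upstream of the CG9147 summit. The core CGATA is part of the DRE and is also the core bound by the insulator protein BEAF-32. It was within 100 bp at CG14100, Art3, CG18549, Tcs5 and CG9147, so 5 of 8, beside 41.3% of all promoter summits. Of the 100 highest promoter summits that were not members 27 had it. TATAAA was within 100 bp at CG18549 and Tcs5, beside 35.8% of all promoter summits and 46 of those 100. Of the remaining motifs none had a match within 100 bp at any member. GAGAGAG was there at 3.26% of all promoter summits, the Zelda motif CAGGTAG at 0.911% and the CTCF core AGGTGGCG at 0.806%. All motifs were searched on both strands.

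**Figure D1:**
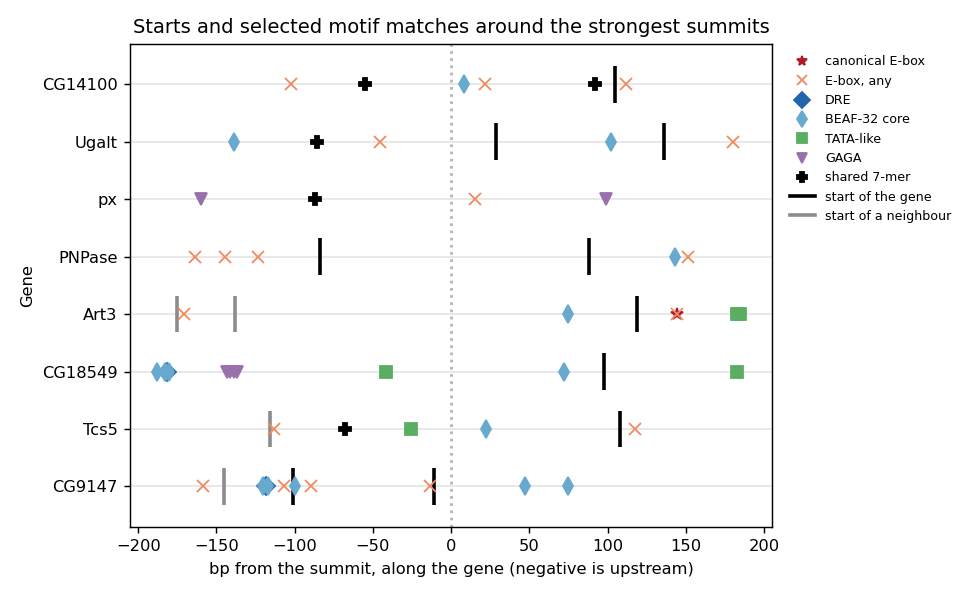
Positions of annotated starts (vertical bars, black for the gene and grey for a neighbour) and of selected motif matches (symbols) in bp from the strongest summit of each gene, read along the gene, with negative values upstream. The canonical E-box appears once, at Art3 beyond 100 bp, and the shared string of 7 letters lies 50 to 90 bp upstream of the summit at CG14100, Ugalt, px and Tcs5, with a second copy downstream at CG14100.

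The string GGGCGTA began 58 bp upstream of the summit at CG14100, 89 bp upstream at Ugalt, 90 bp upstream at px and 71 bp upstream at Tcs5, each time on the gene's own strand. CG14100 held a second copy, on the opposite strand, 89 to 95 bp downstream of the summit. At CG14100, Ugalt and Tcs5 the match ran to 9 letters, ATGGGCGTA, which 10 of the other 2847 promoter summits (0.351%) also had within 100 bp. The string was chosen after the sequences were seen, because it recurred, so its 4 matches among 8 members are no evidence that it marks them. Of the other 2847 promoter summits 35 had it within 100 bp (1.23%), while the windows centred 500 bp to the left and to the right of those summits held it in 46 (1.62%) and 44 (1.55%). Across promoter summits in general it was thus no more frequent at the summit than beside it. By score, it was found at 5 of the 100 highest promoter summits that were not members, at 14 of the next 900 (1.56%) and at 16 of the last 1847 (0.866%).

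Runs of G and C were arranged about the same 3 summits in a like way. In CG14100 a run of 5 G lay 31 to 35 bp upstream of the summit and a run of 6 C lay 68 to 73 bp downstream. In Tcs5 a run of 5 G lay 45 to 49 bp upstream and a run of 4 C 69 to 72 bp downstream. Ugalt had 4 G at 65 to 68 bp upstream and 5 C at 40 to 44 bp downstream, with a further 5 C at 54 to 58 bp upstream. A run of 4 or more G before the summit with one of C after it, within 100 bp, was present at 3 of 8 members, at 5 of the next 100 promoter summits by score and at 42 of all 2855 (1.47%). This arrangement was also noticed in the printed windows and not tested.

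The bases at the summits were rich in A and T. GC content within 50 bp of the summit ran from 26.7% at Art3 to 33.7% at Ugalt and PNPase, with a median of 30.7%. The median was 29.7% over the next 100 promoter summits and 34.7% over all 2855, with an upper quartile of 43.6% in the latter, so every member lay below the median of all. In windows 500 bp away the members' GC content was higher, with medians of 52.0% to the left and 42.6% to the right. The median of the next 100 promoter summits was as low as that of the 8 genes.

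**Figure D2:**
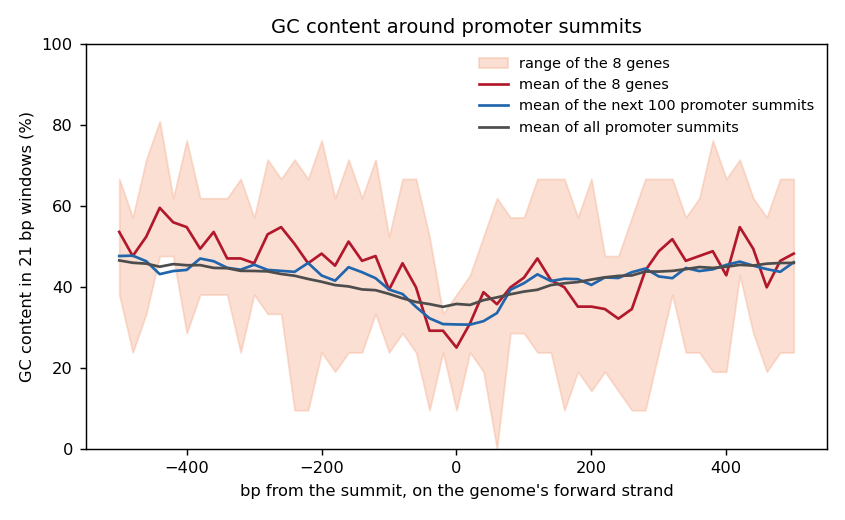
GC content (%) in windows of 21 bp against the distance in bp from the summit on the forward strand, as the mean of the 8 genes (red, with their range shaded), of the next 100 promoter summits by score (blue) and of all 2855 promoter summits (grey). All 3 means dip at the summit, and the blue and red lines dip lower than the grey line.

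The scores that chose the members ran from 986.3 to 1561.5 in the IDR list, in which the median of all 4712 peaks was 136.4. CG14100 held the highest score of the whole list. Ugalt scored 1393.6, px 1267.4, PNPase 1185.2, Art3 1174.1, CG18549 1004.5, Tcs5 995.6 and CG9147 986.3. A promoter peak at the starts of Chro, a chromodomain protein of chromosomes and the spindle, and Ssl1, a TFIIH subunit, scored 1307.4 at rank 5, above 6 of the members, and is not among the listed genes. Just below CG9147 came promoter peaks at ph-p, a Polycomb group gene, with 941.2 and at Tina-1 with 938.3. Ranks 2, 3 and 9 of the list were no promoter peaks, with summits in introns of ush and CG11050 and between genes. The members' −log10 q was 3.58 each, the highest in the list, which 1880 of the 4712 peaks had, so this column does not order them.

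**Figure D3:**
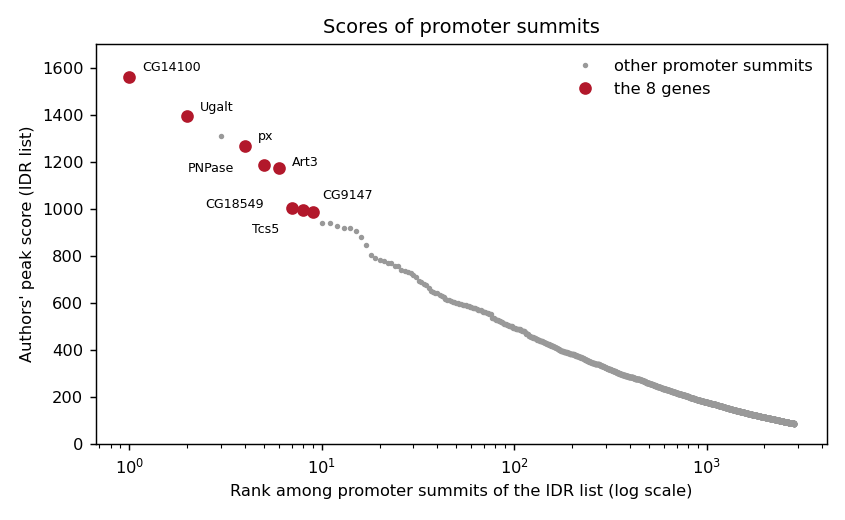
The authors' score of each promoter summit in the IDR list (y axis, linear from 0) against its rank among promoter summits (x axis, log scale). The 8 genes (red, named) take ranks 1, 2 and 4 to 9, and the grey point at rank 3 is the peak at Chro and Ssl1.

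Each replicate placed all 8 peaks near the top of its own list of 30000, although the 2 replicates ordered them differently. CG14100 ranked 3 in replicate 2 (score 810.8) and 1 in replicate 3 (753.1). Ugalt ranked 4 (781.5) and 3 (619.8), and px ranked 6 (715.8) and 7 (555.4). PNPase ranked 9 in replicate 2 (621.4) and 6 in replicate 3 (558.4). These 4 genes stayed within the 10 highest peaks in both replicates, and so did Art3, which ranked 7 (714.1) and 10 (460.5). CG18549 ranked 11 (604.8) and 16 (394.2). Tcs5 and CG9147 differed most between the replicates and in opposite directions. Tcs5 ranked 20 in replicate 2 (497.5) and 8 in replicate 3 (505.2), whereas CG9147 ranked 10 (620.4) and 19 (368.6). Scores in the replicate lists are each on a scale of their own and are not compared between these lists or with the pooled list, whose scores the IDR list carries, and both replicates fed the list that chose the genes.

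**Figure D4:**
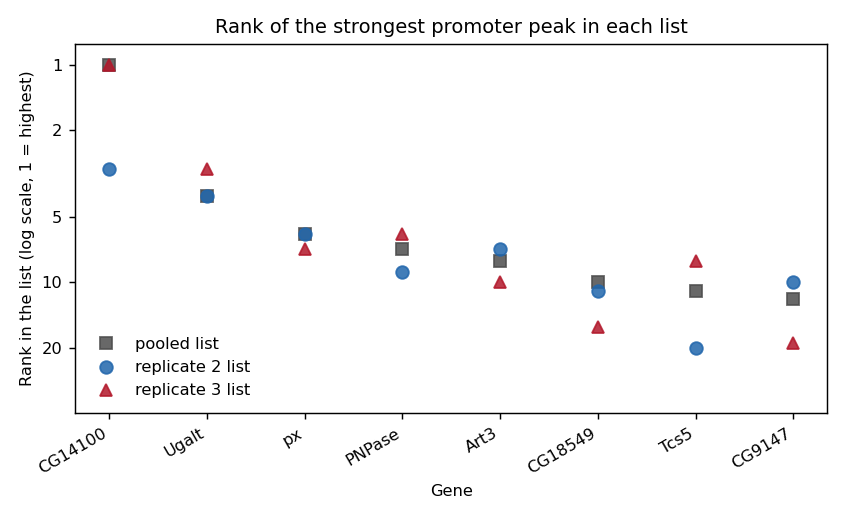
Rank of the strongest promoter peak of each gene (y axis, log scale, 1 is the highest) in the pooled list (squares), in the replicate 2 list (circles) and in the replicate 3 list (triangles). All points lie between ranks 1 and 20, with the widest gaps between replicates on this scale at CG14100, Tcs5 and CG9147.

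The replicates placed the summits close together. Their distance was 3 bp at CG18549 and CG9147, 4 bp at px and PNPase, 11 bp at Art3, 15 bp at Tcs5, 17 bp at CG14100 and 39 bp at Ugalt. The median was 7.5 bp for the 8 genes, 17.0 bp for the next 100 promoter summits and 35.0 bp for the 2844 promoter summits with an overlapping peak in both replicates. None of the 8 peaks had the width of 436 bp that 2114 of the 2855 promoter peaks (74.0%) shared. Member widths were between 361 bp at Tcs5 and 444 bp at Art3. Of the next 100 promoter peaks 1 had that width, and their median was 364 bp, so widths other than 436 bp were common to the high-scoring peaks.

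All 8 genes had their strongest summit within 250 bp of a start, as the rule requires within 500 bp, and 25.9% of protein-coding genes (3613 of 13945) had a promoter summit at all. The distance to the nearest start ran from 11 to 213 bp, with a median of 102 bp for the members and 104 bp for all promoter summits. In 6 members the summit lay upstream of the nearest start, and in PNPase and CG9147 it lay inside the 5′ UTR of a transcript. At 3 of the 8 genes the same summit was within 500 bp of the start of a second gene, and all 3 pairs were divergent. For comparison 42.9% of IDR promoter summits (1224 of 2855) were within 500 bp of starts of more than 1 protein-coding gene. At such a summit the data do not tell which of the genes it belongs to.

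Ugalt (FBgn0024994, chrX:2701124-2703852, minus strand) is the transporter gene with the highest score. Its summit at 2703881 lay 29 bp upstream of the outer of its 2 starts and 136 bp upstream of the inner one. The next gene on that side, eIF2Bbeta, which encodes a subunit of the nucleotide exchange factor of translation initiation, starts 690 bp from the summit in the opposite direction. It had no promoter summit in the pooled list or in replicate 2, and in replicate 3 a weak one 55 bp from its start, with 15.3 at rank 18310. No second IDR summit lay in Ugalt or within 5 kb. The pooled list held 6 weaker ones, the highest with a score of 58.9 at rank 8013 between Spg7 and Lint-O, and Ugalt's peak scored 23.7 times as much.

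Of 10 names listed for nucleotide sugar transport 8 were found as genes, and Ugalt, senju and meigo had an IDR promoter summit. Csat, a name not found, is a synonym of Ugalt. The list was chosen with results of these data known. senju, which like Ugalt encodes a UDP-galactose transporter of the Golgi, had a score of 304.2 at rank 466 and shared its summit with eIF3h. meigo scored 181.2 at rank 1420. Efr, nac, sll and Papst2 had weaker promoter summits, in the pooled list but not in the IDR list, and frc had none in either. Outside the member, 2 of 7 genes were thus called, beside 25.9% of protein-coding genes.

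CG18549 (FBgn0038053, chr3R:12449296-12456355, plus strand) has a single start, and the summit at 12449198 lay 98 bp upstream of it. The gene before it on the same strand, vrs, ends 152 bp from the summit and had no promoter summit in any of the 4 lists. The pooled list held 7 more summits in or within 5 kb of CG18549. The highest were at trus, with 85.1 at rank 4873, and between CG5961 and Polr3C, with 83.2 at rank 5002. Desat1, the acyl-CoA desaturase gene upstream, had an IDR promoter summit of its own with 104.0 at rank 3662.

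PNPase (FBgn0039846, chr3R:31401560-31405452, minus strand) has 3 starts, and its summit at 31404656 lay between the inner pair. It was 84 bp inside the transcript from one of them, in the 5′ UTR, and 88 bp upstream of the other. Against the outermost start it lay 796 bp downstream. A second, weaker summit of the same called region in the pooled list lay 200 bp farther toward Gprk2, with a score of 38.4 at rank 14265. Gprk2 is a G protein-coupled receptor kinase gene on the other strand. In replicate 2 such a summit, 199 bp from the strongest, had 47.9 at rank 6121. The highest other pooled summit around PNPase lay 2753 bp away in a Gprk2 intron, with 43.3 at rank 12098. The strongest summit scored 1185.2 and was 589 bp from the nearest start of Gprk2, so Gprk2 was not counted as sharing it. Gcn2, the eIF2α kinase gene that overlaps the other end of PNPase, had its own IDR promoter summit with 121.5 at rank 2859.

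Of 8 genes found among 10 named for mitochondrial RNA turnover and transcription, 4 had an IDR promoter summit. mTerf3 had a score of 145.1 at rank 2111, TFAM, whose product packs mitochondrial DNA, had 125.3 at rank 2711, and mtTFB1 had 107.0 at rank 3520. Each of these 3 summits was shared with another gene. Suv3, the helicase that works with PNPase in mitochondria, had a promoter summit in the pooled list but not in the IDR list, with 53.7 at rank 9055. Without PNPase the count was 3 of 7, beside 25.9% of protein-coding genes.

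Tcs5 (FBgn0035590, chr3L:5138652-5139395, minus strand) shared its summit at 5139503 with CHMP2B, which encodes an ESCRT-III subunit for membrane scission. The summit lay 108 bp upstream of Tcs5 and 116 bp upstream of CHMP2B, whose starts are 224 bp apart, so it was nearly midway. No second IDR summit lay within 5 kb, and the nearest one on the arm was 45803 bp away. Of 3 t6A genes found among 4 named, Tcs5 was the 1 with an IDR promoter summit, so outside the member 0 of 2 had one, beside 25.9% of protein-coding genes. Tcs1 and Tcs3 were in the pooled list at ranks 8514 and 15905, with scores of 56.4 and 35.5.

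Art3 (FBgn0038306, chr3R:15227605-15229408, minus strand) shared its summit at 15229527 with mRpS10, a protein of the small subunit of the mitochondrial ribosome. The summit lay 119 bp upstream of Art3 and 138 bp upstream of the nearer of 2 mRpS10 starts. Of the 5 other pooled summits around Art3 the highest was at Polr2G, with 64.3 at rank 7165. tefu, the fly ATM kinase gene, ends within 5 kb and had its own IDR promoter summit with 143.0 at rank 2171, 295 bp from its start. Replicate 3 had that promoter summit, with 63.2 at rank 1774, and replicate 2 had none within 500 bp of a tefu start.

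All 9 arginine methyltransferase genes named were found, and 4 had an IDR promoter summit. Art8 had 345.6 at rank 342 and shared its summit with dUTPase. Art1, the counterpart of the main mammalian enzyme PRMT1, had 242.2 at rank 800 and shared its summit with Mcm5. Art4, the counterpart of CARM1, had 124.2 at rank 2745. csul and Art7 had promoter summits in the pooled list but not in the IDR list, at ranks 11523 and 10877, and Art2, Art6 and Art9 had none in either. Without Art3 the count was 3 of 8, beside 25.9% of protein-coding genes.

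px (FBgn0003175, chr2R:22494297-22562065, minus strand) is the longest of the 8 genes, 67769 bp, and its strongest peak was not at the start most of its transcripts use. The summit at 22514312 was intronic. It lay 213 bp before an internal start at 22514099, which 1 of 6 annotated transcripts uses. The outer start at 22562065, used by 4 transcripts, had no IDR summit. Its summit in the pooled list, which CG11362 shared, had 60.7 at rank 7708. Replicate 2 had a summit 28 bp from it with 35.9 at rank 9126, and replicate 3 had one 1 bp from it with 26.6 at rank 6721. The middle start at 22546558, used by 1 transcript, had no IDR summit either. A pooled summit lay 207 bp from it with 30.7 at rank 19377. Replicate 3 had one 82 bp from it with 12.6 at rank 25634, and replicate 2 had none within 500 bp. With 1 canonical start per gene, px was the member that lost its promoter summit. It is also the gene with the most peaks, with 4 IDR summits and 38 pooled summits in or within 5 kb, of which 34 lay inside the gene. The other 3 IDR summits lay in introns, with scores of 146.5 at rank 2071, 144.4 at rank 2132 and 111.3 at rank 3277. CG4554 and dnr1, farther out on either side, had IDR promoter summits with 147.7 at rank 2049 and 107.2 at rank 3500.

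Of 10 genes named for wing vein patterning, 4 had an IDR promoter summit. Beside px these were net, a bHLH gene that limits veins, with 209.7 at rank 1091, rho, which encodes the protease that releases EGF receptor ligands, with 100.6 at rank 3836, and bs, the fly serum response factor, with 98.6 at rank 3952. Egfr, caup, ab and vn had promoter summits in the pooled list but not in the IDR list, and kn and ara had none in either. Without px the count was 3 of 9, beside 25.9% of protein-coding genes.

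CG14100 (FBgn0036889, chr3L:19589072-19590524, minus strand) has 1 start, 105 bp from the summit at 19590629. On its other side the summit was 144 bp from the 3′ end of ash1, which encodes a trithorax group histone methyltransferase and starts 8126 bp away. ash1 had an IDR promoter summit at its own start with 88.4 at rank 4617. Within 5 kb of CG14100 lay 1 other IDR summit, with 106.3 at rank 3550, between the divergent starts of CG9231 and CG9330. The CG14100 peak scored 14.7 times as much as that one in the pooled list.

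CG9147 (FBgn0031774, chr2L:6065997-6067635, plus strand) shared its summit at 6066098 with Fbw5, an F-box gene of ubiquitin ligases, whose start was 145 bp away. The summit was inside CG9147, 11 bp from one of its 2 starts and 101 bp from the other. This was the member with the strongest IDR neighbours. A summit with 197.7 at rank 1223 lay 3199 bp away between CG13994 and ND-51, a gene of respiratory complex I, and one with 96.4 at rank 4095 lay 4651 bp away between CG9154 and Kr-h2. The CG9147 peak scored 4.99 times as much as the higher of these, the smallest such multiple of the 8 genes in the pooled list.

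Together the 8 genes held 14 IDR summits in or within 5 kb, 6 of them besides the strongest ones. CG14100, px and CG9147, so 3 of 8, had more than 1, beside 27.4% of protein-coding genes (3820 of 13945). The median distance from the strongest summit to the next IDR summit on the arm was 7520 bp for the members, 3800 bp for the next 100 promoter summits and 4010 bp for all. In the pooled list each of the 7 genes other than px had between 3 and 11 summits, in replicate 2 between 5 and 9, and in replicate 3 between 4 and 10. Of 42 protein-coding genes within 5 kb of the members, 3 had the member's own summit at a start and 12 had another IDR promoter summit, beside 25.9% of all protein-coding genes with one. A further 20 had a promoter summit in the pooled list but not in the IDR list, 14 of them in both replicates and 6 in 1 replicate. The last 7 had none in the pooled list, and 6 of these had one in 1 replicate, while vrs had none in any list.

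**Figure D5:**
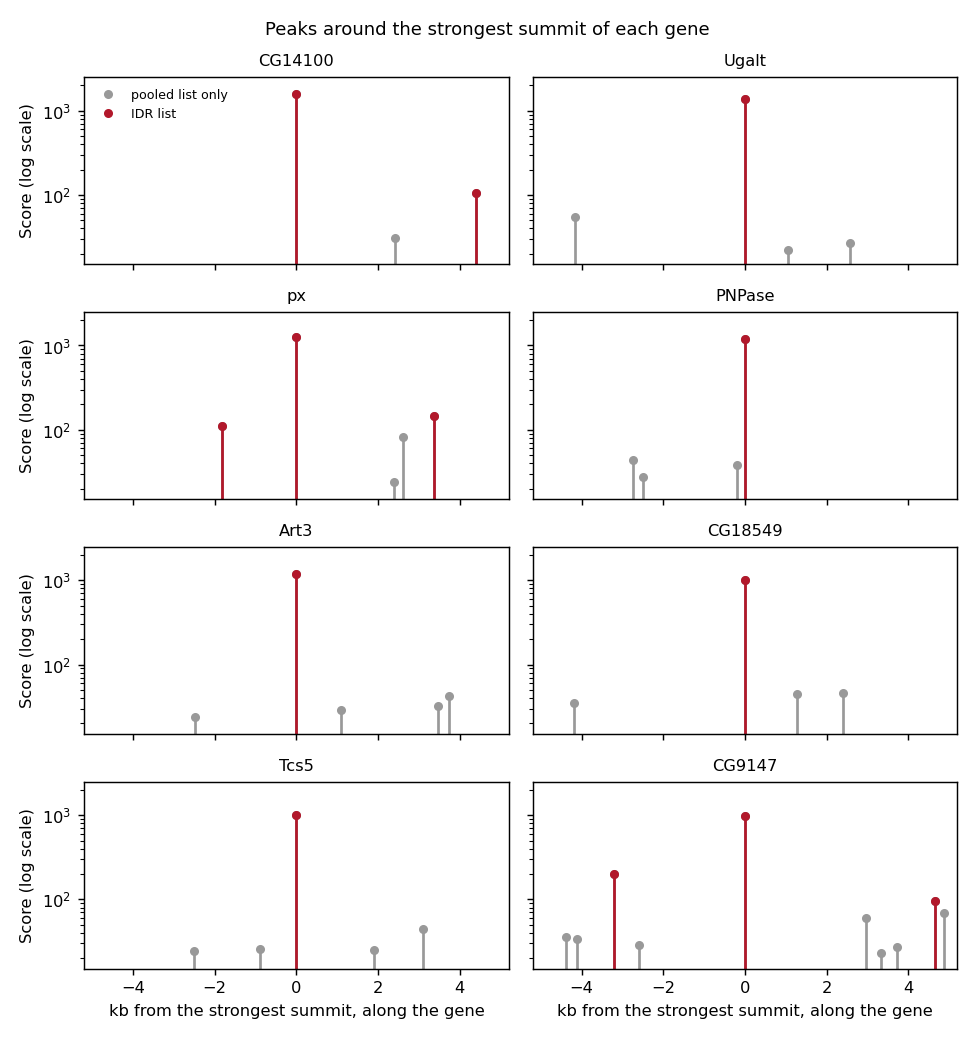
Scores (log scale) of the summits within 5 kb on either side of the strongest summit, at 0 kb, read along each gene, for IDR summits (red) and summits in the pooled list only (grey). The central summit is the highest in each of the 8 panels, and CG14100, px and CG9147 have further IDR summits within this range.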

How the data were processed

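ChIP-seq peak lists on dm6 were used for replicate 2, for replicate 3, for both pooled and for the pooled peaks that passed an IDR threshold. Per the deposited text listings, the authors made each list from IP alignments against a control, which was not analysed here. Neither an aligner nor a caller of peaks is named in the sources at hand. The peak score deposited by the authors measures enrichment, on a scale of its own in each replicate list and on 1 scale shared by the pooled and IDR lists. The lists also hold −log10 q as deposited by the authors. The 3 lists other than the IDR list each hold 30000 peaks, and all 4712 IDR peaks are in the pooled list. Depth is unknown, so no counting interval is given. The lists on dm3 were not used.

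From these files, summits were set against protein-coding starts (Ensembl release 115) and the Release 6 genome, whose arm lengths hold every peak. Coordinates are 1-based. A summit within 500 bp of a start is a promoter summit, peaks of 2 lists match at an overlap of 1 bp or more, and the highest-scoring match was kept. GC content was taken within 50 bp and motifs within 100 bp of the summit. Python 3.11.15 was used. The distance code and the motif search were tested on simulated data with planted answers, the motif search with CACGTG alone. The genes and the 5 gene lists were chosen with earlier results of these data known, as were the 14 motifs. Named are the members, genes sharing their summits, neighbours within 5 kb with an IDR promoter summit, the promoter peaks at the threshold, and up to 4 genes of each list. Other genes named as neighbours or without a call were named after their values were seen. Gfr, Csat, Polrmt, LRPPRC2 and Tcs2 were not found by name in the annotation, and Csat is a RefSeq synonym of Ugalt.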

Additional observations from a re-analysis of the deposited data

How the results depend on the processing

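No paired analysis was possible because the series has 1 group and no test was made. All 8 members kept a promoter summit with windows of 250 and 1000 bp, among the 2356 higher-scoring IDR peaks and without either replicate, and 7 did with 1 canonical start per gene, px being the exception. All 8 were among the highest 50 and 200 peaks of both replicates. The 14 summits in or within 5 kb became 6 with no margin and 83 with all pooled peaks. Members sharing their summit rose from 3 to 5 with a window of 1000 bp, which adds Ugalt and PNPase. Within 200 bp, 1 member had CACGTG and 2 had a DRE or Ohler 1, 6 or 7, whereas 0 had either within 100 bp, also at the summits of either replicate alone. The median GC content was 36.3% within 100 bp and 38.5% within 200 bp, and 29.7% to 30.7% without one of the replicates. The share of protein-coding genes with a promoter summit was 21.9% at 250 bp, 28.8% at 1000 bp, 23.4% with canonical starts, 15.5% among the 2356 higher-scoring peaks and 25.0% to 26.0% without one of the replicates. GGGCGTA, an alternative added after seeing the data, was within 50 bp at 0 members, and within 100 bp at 3 and 4 without replicate 2 and without replicate 3. Where values moved, the cause was not tested. Depth is unknown, so a weak peak missing from a list cannot be told from one not detectable.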

Other observations

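Among the promoter summits that were not members, the highest-ranked with GGGCGTA within 100 bp were those of CG31145, with a score of 918.1 at rank 18, of Pex11ab and CG8320, with 755.1 at rank 33, and of CG1888, with 727.0 at rank 41. Hpf1 had it at a summit with 535.3 at rank 107. elav, which encodes a neuronal RNA-binding protein, had it at a summit with 493.3 at rank 139, and dnc, the cAMP phosphodiesterase gene, at one with 438.0 at rank 190. These are all such summits among the 200 highest IDR peaks. The genes were named after their values were seen, and nothing was tested on them.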
